A study of Mus musculus with 6 samples.

Results

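Transcripts of the extracellular matrix were examined in the spleens of mice that overexpressed AIMP2-DX2, a shortened splice form of the tRNA synthetase scaffold AIMP2, and of control littermates. The members were 45 genes chosen by symbol, and 43 of them were measured by a probe set annotated to that gene alone, out of 22180 genes measured in this way. Fbn1 had no probe set under its name, and Loxl2 was covered only by 2 probe sets shared with Gm21451, which read 0.17 (SE 0.12) and 0.19 (SE 0.18) higher in DX2 on the log2 scale and were left out. DX2 mice carried the genotype CAG-rtTA; TRE DX2/+, in which the widely active CAG promoter drives the doxycycline-dependent activator rtTA, and control mice carried the responsive TRE DX2 transgene without rtTA. Mice of both genotypes received doxycycline in their feed (6.25 mg per kg) from 8 weeks of age and were 1 year old at sampling. Each group had 3 spleens, called biological replicates in the labels, on 1 Affymetrix array each. Only the DX2 mice carried rtTA, so effects of DX2 and of rtTA cannot be told apart.

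The values are log2 expression values of whole spleen, and the number of arrays limits their precision. Array medians over all genes lay between 5.42 and 5.46. Medians over all probe sets were 5.16 to 5.20 in control and 5.06 to 5.12 in DX2 arrays. Xist, the RNA of the inactive X chromosome in females, read 10.89 and 10.54 in controls 1 and 2 and 3.89 to 4.29 in control 3 and the DX2 spleens, and the labels give no sex. The probe set covering Aimp2 is shared with Eif2ak1 and read 0.25 (SE 0.14) higher in DX2, so it gave no check of the labels. In whole tissue, fewer cells of a type and less RNA per cell cannot be told apart, and the cell type that made a transcript was not measured.

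The matrix of the spleen is laid down mainly by fibroblastic reticular cells, smooth muscle and capsule cells and endothelium. Fibril-forming collagens give the capsule, trabeculae and reticular fibres their tensile strength, and type IV collagen, laminins, nidogen and perlecan form the basement membranes, including the interrupted rings around the red pulp sinuses. Elastic fibres let the capsule stretch, small proteoglycans coat fibrils, and secreted proteases of the MMP and ADAMTS families, held in check by TIMPs, remodel the whole. Platelets and macrophages also carry or make some of these proteins, among them fibronectin, SPARC and TIMPs.

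Promoter sequences are shown for members on which the results turn, chosen among those at an unadjusted p under 0.05 in the results that follow. Promoter windows from RefSeq (build GRCm38.p6) matched 29 of the 43 measured members. For Adamts1, Timp1, Nid1, Lamb1 and Col1a2 the 250 bases before the start are given 5′ to 3′ on the gene's own strand. Capitals mark matches to any of the promoter motifs named next, searched on both strands, so that the reverse complement is marked as well. The TATA box was searched as TATAAA and places the start of transcription in some genes. The box bound by the factor NF-Y was searched as CCAAT. The GC box bound by Sp1 and its relatives was searched as GGGCGG. The AP-1 motif was searched as TGANTCA, with N for any base, and had no match in the 5 promoters printed.
Adamts1, chr16:85803114-85803363, minus strand: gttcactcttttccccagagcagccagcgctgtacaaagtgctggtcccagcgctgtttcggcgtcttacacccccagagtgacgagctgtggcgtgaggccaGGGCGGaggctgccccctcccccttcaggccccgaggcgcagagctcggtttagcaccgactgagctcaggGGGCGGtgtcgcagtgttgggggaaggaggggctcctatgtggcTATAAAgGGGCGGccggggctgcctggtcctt
Timp1, chrX:20869916-20870165, plus strand: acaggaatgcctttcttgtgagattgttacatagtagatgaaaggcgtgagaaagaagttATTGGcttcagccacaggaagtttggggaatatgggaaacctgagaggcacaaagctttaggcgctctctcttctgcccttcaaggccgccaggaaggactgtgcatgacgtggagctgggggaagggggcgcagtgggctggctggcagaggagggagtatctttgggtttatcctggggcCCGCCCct
Nid1, chr13:13437352-13437601, plus strand: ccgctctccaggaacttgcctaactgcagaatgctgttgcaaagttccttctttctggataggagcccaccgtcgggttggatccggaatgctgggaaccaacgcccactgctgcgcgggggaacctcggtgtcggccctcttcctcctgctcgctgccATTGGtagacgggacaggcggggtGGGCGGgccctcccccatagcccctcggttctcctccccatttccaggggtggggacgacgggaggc
Lamb1, chr12:31265043-31265292, plus strand: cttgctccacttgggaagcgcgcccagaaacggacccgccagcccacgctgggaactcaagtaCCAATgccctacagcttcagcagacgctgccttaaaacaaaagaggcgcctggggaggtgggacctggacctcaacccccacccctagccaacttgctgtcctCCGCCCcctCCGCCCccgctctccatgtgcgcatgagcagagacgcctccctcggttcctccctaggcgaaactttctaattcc
Col1a2, chr6:4505368-4505617, plus strand: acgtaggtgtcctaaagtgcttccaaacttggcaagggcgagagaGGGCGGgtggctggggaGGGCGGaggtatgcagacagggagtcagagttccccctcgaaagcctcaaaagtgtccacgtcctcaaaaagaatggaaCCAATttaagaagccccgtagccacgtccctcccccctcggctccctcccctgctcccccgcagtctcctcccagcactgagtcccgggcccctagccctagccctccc

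The Adamts1 window held a TATA match that began 32 bases before the start and GC boxes that began 147, 76 and 25 bases before it. Nid1, Lamb1, Timp1 and Col1a2 each held at least 1 CCAAT and at least 1 GC box match. Over windows of 300 bases (250 before to 50 after the start), GC boxes were found in 19 of 29 members against 35.9% of 27025 genes, and CCAAT boxes in 10 of 29 against 38% of genes. TATA boxes were found in 4 of 29 members (Adamts1, Col3a1, Ogn and Tnc) against 14.2% of genes. AP-1 motifs were found in 2 of 29 members (Col6a1 and Tnxb) against 7.92% of genes. These matches describe letters and not binding.

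Of the members, 5 pairs were neighbours in the order of protein-coding genes in RefSeq, namely Col4a1 and Col4a2, Adamts1 and Adamts5, Col3a1 and Col5a2, Col6a1 and Col6a2, and Dcn and Lum. Col4a1 and Col4a2 are read from opposite strands, and their RefSeq starts lie 21 bases apart. The 30 bases around both starts are given next on the plus strand, with capitals running from the start of Col4a2 to that of Col4a1. They hold a GC box match.
Col4a1 and Col4a2, chr8:11312801-11312830: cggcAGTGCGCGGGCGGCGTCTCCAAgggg

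The measured members were on the whole slightly higher in DX2 spleens, and none of them passed the test over all genes. Differences are given as DX2 minus control on the log2 scale, from limma, and p-values were adjusted (Benjamini-Hochberg) across the 22180 genes, with 0.05 as the threshold. The largest positive differences were those of Adamts5, a protease of aggrecan and versican (1.76-fold), Col4a1, a chain of the main basement membrane collagen (1.74-fold), its partner Col4a2 (1.63-fold) and Adamts1, a related protease (1.61-fold). The lowest were those of Ogn, the small proteoglycan mimecan (1.94-fold lower), and Postn, the matricellular protein periostin (1.51-fold lower). Of 43 members, 36 were higher in DX2 (83.7%), against 51.6% of all genes, and the median difference was 0.20, against 0.01 over all genes.

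None of the 43 reached an adjusted p of 0.05, a level that 0.0361% of all genes reached as higher and 0.280% as lower in DX2. At an unadjusted p under 0.05, 12 members were higher (27.9%, against 8.13% of all genes) and 2 were lower, Postn and Ogn (against 7.82% of all genes). With the 40% dimmest genes removed, 9 of 39 members were higher at that level, against 11.3% of genes. The 3 DX2 values lay above all 3 control values for 11 members (25.6%, against 10.7% of genes) and below them for 1, Postn (against 11.2%). The count of 14 members at an unadjusted p under 0.05 was 7 without control 2, 7 without control 3, 7 without DX2 3 and 5 when the fit held a term for sex. The share of all genes higher at that level fell too, from 8.13% to 6.79% without control 2 and 5.94% without control 3. It was 5.91% without DX2 3 and 3.76% with the sex term. Members higher at that level numbered 5, 6, 6 and 4 in these settings. Leaving out DX2 2 instead gave 3 members past the adjusted threshold, Adamts1, Adamts5 and Col4a1, where 370 genes in all passed.

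The shift was not the same on every DX2 array. Relative to the control mean of each gene, the median member stood at 0.10 in DX2 1, 0.21 in DX2 2 and 0.34 in DX2 3, and at 0.10, -0.09 and 0.00 in controls 1, 2 and 3. Control 1 and DX2 1 therefore stood at a like level by this summary. DX2 3 had the highest value of all 6 arrays for 18 members and DX2 2 for 11, while control 2 had the lowest for 19 and control 3 for 11.

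**Figure D1:**
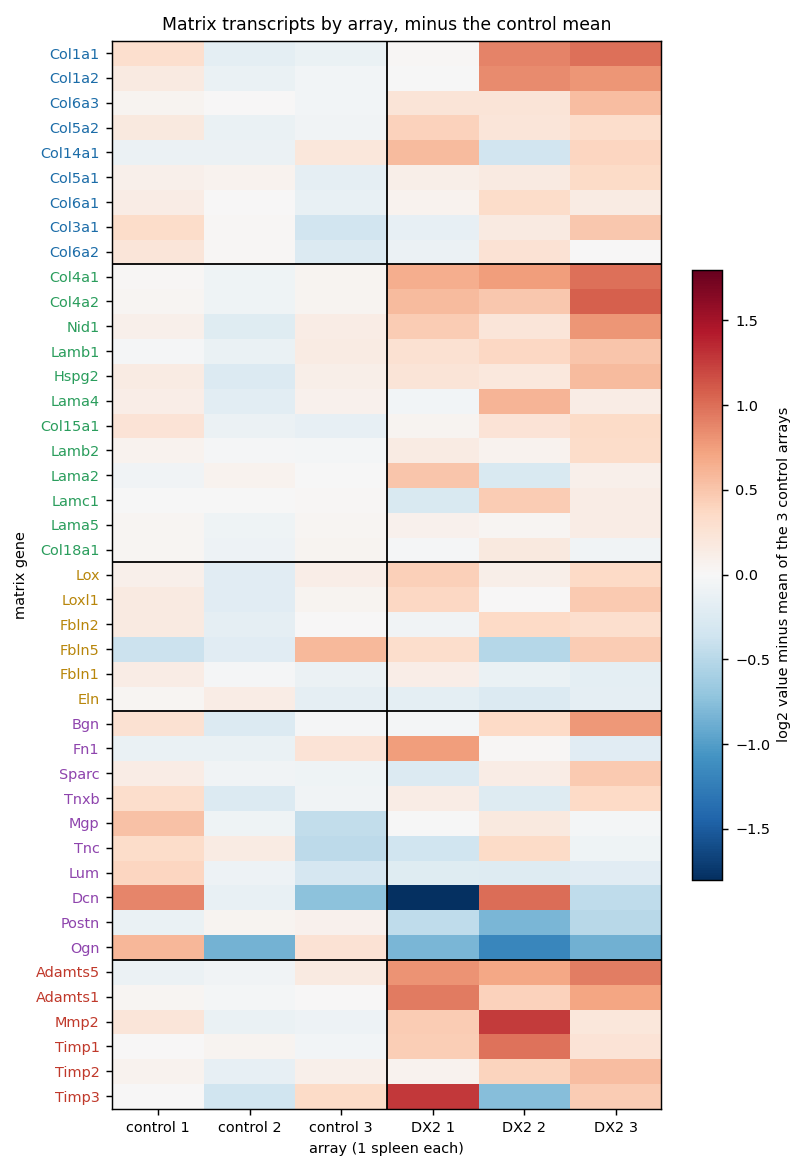
Log2 value of each of the 43 measured matrix genes on each array minus the gene's mean over the 3 control arrays, with genes grouped by role (label colour and lines) and ordered by their difference. Adamts5, Adamts1, Col4a1 and Col4a2 are above the control mean on all 3 DX2 arrays, Col1a1 and Col1a2 stand well above it on DX2 2 and DX2 3 and close to it on DX2 1, and Dcn varies most, from 6.46 on DX2 1 to 9.28 on DX2 2 before the control mean is taken off.

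Proteases and their inhibitors had the largest median difference of the role groups, 0.60 over 6 members, all of them higher in DX2 and none past the adjusted threshold. At an unadjusted p under 0.05 there were 4 (66.7%, against 8.13% of all genes as higher), Adamts5, Adamts1, Timp1 and Mmp2. Adamts5, a secreted metalloprotease that cleaves the proteoglycans aggrecan and versican, read 5.44, 5.48 and 5.70 in controls 1 to 3 and 6.35, 6.24 and 6.47 in DX2 1 to 3. The lowest DX2 value lay above the highest control value, and both groups were tight (SD 0.14 and 0.11, n = 3 each). The difference was 0.81 (SE 0.12, limma adjusted p = 0.0577).

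Adamts1, which lies beside Adamts5 in the genome and also cleaves versican, read 5.27, 5.20 and 5.25 in control and 6.18, 5.66 and 5.95 in DX2 spleens. The control spleens were nearly level (SD 0.04) and every DX2 spleen was above them, DX2 1 the furthest. The difference was 0.69 (SE 0.15, limma adjusted p = 0.0995), and leaving out DX2 1 gave 0.57, leaving out DX2 2 gave 0.83 (limma adjusted p = 0.0406).

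Timp1, a secreted inhibitor of metalloproteases, read 4.42, 4.48 and 4.37 in control and 4.87, 5.40 and 4.67 in DX2 spleens. The groups did not overlap, but DX2 2 stood well above the other DX2 spleens, and the difference of 0.56 (SE 0.19, limma adjusted p = 0.213) was 0.35 without it. Mmp2, the gelatinase that cleaves denatured and type IV collagen, had the same order among the DX2 spleens but not among the controls. It read 6.35, 6.003 and 6.03 in control and 6.59, 7.38 and 6.34 in DX2 spleens. DX2 3 lay just under control 1, so the groups overlapped, and the difference of 0.64 (SE 0.26, limma adjusted p = 0.294) was 0.33 without DX2 2.

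Timp2, which inhibits metalloproteases and also takes part in activating proMMP2, read 7.90, 7.70 and 7.93 in control and 7.90, 8.24 and 8.40 in DX2 spleens. DX2 1 lay within the control range, and the difference was 0.34 (SE 0.15, limma adjusted p = 0.339). Timp3, the matrix-bound inhibitor that acts on ADAMTS proteases as well, read 7.51, 7.15 and 7.85 in control but 8.78, 6.74 and 7.96 in DX2 spleens, so DX2 held both its highest and its lowest value. Its difference of 0.32 (SE 0.47) was smaller than its error. The 8 measured megakaryocyte and platelet markers had the same highest array, with a mean log2 value of 9.30 in DX2 1 against 7.17 in DX2 2, 7.57 in DX2 3 and 7.09 to 7.72 in control. Erythroid and neutrophil markers also had their highest mean in DX2 1, at 9.78 and 9.11. The part of any of these cell types in the Timp3 values was not tested.

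Basement membrane transcripts came next, with all 12 members higher in DX2, a median difference of 0.23 and none past the adjusted threshold. At an unadjusted p under 0.05 there were 4 (33.3%, against 8.13% of all genes as higher). Col4a1, the α1 chain of type IV collagen, read 6.32, 6.22 and 6.34 in control and 6.95, 7.05 and 7.29 in DX2 spleens. The groups were separated by more than the spread within either (SD 0.06 and 0.18, n = 3 each), and the difference was 0.80 (SE 0.12, limma adjusted p = 0.0603). Col4a2, the α2 chain that assembles with it, read 5.82, 5.71 and 5.84 in control and 6.35, 6.27 and 6.87 in DX2 spleens. Again the groups did not overlap and DX2 3 was highest, with a difference of 0.71 (SE 0.17, limma adjusted p = 0.117). Both chains, whose genes start within the stretch printed before, thus stood above control on all 3 DX2 arrays.

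Nid1, which encodes nidogen and links type IV collagen to laminin, was also higher without overlap, at 7.84, 7.53 and 7.89 in control and 8.20, 7.96 and 8.55 in DX2 spleens. The difference was 0.49 (SE 0.18, limma adjusted p = 0.239), and the other Nid1 probe set gave 0.75. Lamb1, the laminin β1 chain, read 5.07, 4.97 and 5.24 in control and 5.36, 5.47 and 5.59 in DX2 spleens. Its groups did not overlap either, with a difference of 0.38 (SE 0.12, limma adjusted p = 0.193).

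Hspg2, which encodes perlecan, the heparan sulphate proteoglycan of basement membranes, differed by 0.33 (SE 0.16), with DX2 values of 6.82 to 7.19 above control values of 6.38 to 6.77. The other laminin chains differed less, Lama4 by 0.24 (SE 0.19), Lamb2 by 0.18 (SE 0.11), Lama2 by 0.11 (SE 0.19), Lamc1 by 0.10 (SE 0.18) and Lama5 by 0.08 (SE 0.10), and their groups overlapped. Lama4 and Lamc1 were highest in DX2 2 (6.01 and 7.19) and Lama2 was highest in DX2 1 (6.61) and lowest in DX2 2 (5.84). Col15a1 and Col18a1, collagens that carry heparan or chondroitin sulphate chains at basement membranes, differed by 0.22 (SE 0.15) and 0.03 (SE 0.11). The range for Col18a1 therefore runs from -0.23 to 0.29 (95% interval), under the difference seen for Col4a1, though the contrast between these genes was not tested.

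Endothelial cells are a main source of basement membrane, and their markers were compared with these members array by array. The mean log2 value of 12 endothelium markers was 6.78, 6.70 and 7.04 in controls 1 to 3 and 7.37, 6.65 and 7.40 in DX2 1 to 3, with 10 of 12 higher in DX2 (median 0.40) and none past the adjusted threshold. Within each group the marker mean was highest in replicate 3 and lowest in replicate 2. Col4a2 and Nid1 had that same order in both groups. Hspg2, Lamb2 and Lama5 had it in the DX2 group alone, and Col4a1, Lamb1, Lamc1 and Col18a1 in the control group alone. Col15a1, Lama2 and Lama4 had it in neither group. In DX2 2, where the marker mean was lowest of all arrays, Col4a1 and Col4a2 lay above every control spleen. The markers differed among themselves in that spleen. Eng, the TGF-beta coreceptor endoglin, read 8.37 in DX2 2 against 8.24 at most in control, and Cdh5, the cadherin of endothelial junctions, read 7.88 in DX2 2 against 7.97 in control 3. Pecam1, Stab2, Tek, Robo4 and Vwf lay under every control spleen there, Pecam1 at 7.91 against 8.86 in control 2. Esam lay above every control spleen, as Eng did, and the other markers lay within the control range. The part of endothelial content in the basement membrane values was not tested.

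**Figure D2:**
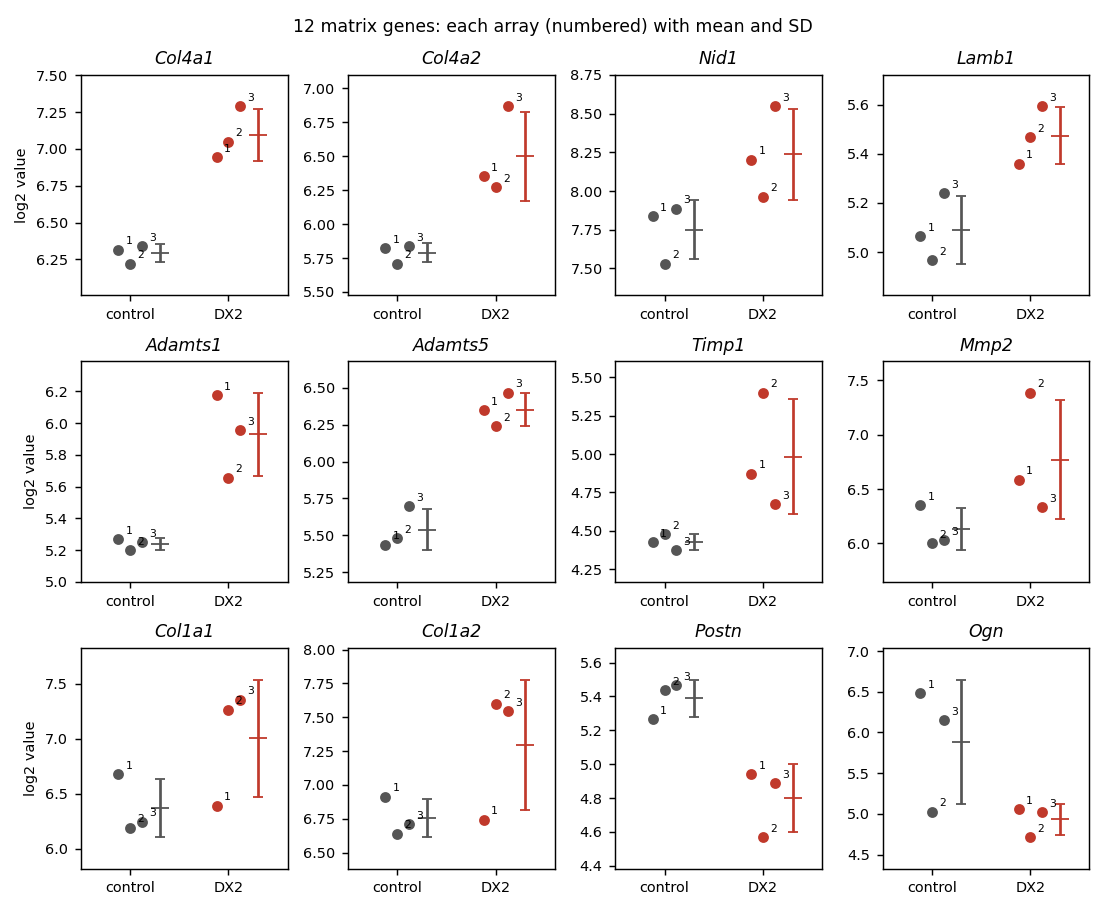
Log2 value of 12 matrix genes in each control (grey) and DX2 (red) spleen, with the replicate number beside each point and the mean with its SD (n = 3) at the right. The groups are apart for Col4a1, Col4a2, Nid1, Lamb1, Adamts1, Adamts5, Timp1 and Postn, and overlap for Mmp2, Col1a1, Col1a2 and Ogn. Axes differ between genes and do not start at 0.

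Fibril-forming and associated collagens were all higher in DX2 on average, 9 of 9 with a median difference of 0.21, and none passed the adjusted threshold. At an unadjusted p under 0.05 there were 4 (44.4%, against 8.13% of all genes as higher), Col6a3, Col5a2, Col1a1 and Col1a2. Col1a1, the α1 chain of type I collagen, the main fibril protein of capsule and trabeculae, read 6.68, 6.19 and 6.25 in control and 6.39, 7.27 and 7.36 in DX2 spleens. DX2 1 lay inside the control range while DX2 2 and DX2 3 lay above it. The difference of 0.63 (SE 0.27, limma adjusted p = 0.307) was 0.94 without DX2 1, still short of the threshold (limma adjusted p = 0.0943).

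Col1a2, the α2 chain of the same protein, had the same pattern, at 6.91, 6.64 and 6.71 in control and 6.74, 7.60 and 7.55 in DX2 spleens. Its difference was 0.54 (SE 0.23, limma adjusted p = 0.312), but a dimmer Col1a2 probe set gave 0.08 and the mean of the pair 0.31, so its size is uncertain. On the probe sets used, type I collagen transcripts in DX2 2 and DX2 3 lay above every control spleen, and those in DX2 1 lay within the control range.

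Col5a2 and Col6a3 differed by less but without overlap. Col5a2, a chain of the type V collagen that seeds fibrils, read 5.47, 5.17 and 5.23 in control and 5.71, 5.50 and 5.61 in DX2 spleens (difference 0.32, SE 0.12, limma adjusted p = 0.272). Col6a3, the long chain of the microfibrillar type VI collagen, read 5.71, 5.66 and 5.61 in control and 5.89, 5.90 and 6.21 in DX2 spleens (difference 0.34, SE 0.12, limma adjusted p = 0.245). Col5a1 was apart as well by a narrow margin, 6.02 in both control 1 and DX2 1, at a difference of 0.20 (SE 0.12).

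The partner chains of type VI collagen overlapped between the groups, Col6a1 differing by 0.18 (SE 0.12) and Col6a2 by 0.05 (SE 0.16). Col3a1, the collagen of reticular fibres and the neighbour of Col5a2, read 6.57, 6.26 and 5.90 in control and 6.09, 6.41 and 6.74 in DX2 spleens, a difference of 0.17 (SE 0.22) with wide overlap. Col14a1, a collagen that sits on fibril surfaces, read 7.29, 7.28 and 7.59 in control and 7.96, 7.05 and 7.78 in DX2 spleens. DX2 2 held its lowest value, the reverse of type I collagen, and the difference was 0.21 (SE 0.24, limma adjusted p = 0.723). It was 0.03 without DX2 1, 0.48 without DX2 2 and 0.0002 with the sex term.

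Elastic fibre genes and crosslinking enzymes showed no shared direction, with 4 of 6 higher, a median of 0.14, and none at an unadjusted p under 0.05. That median was 0.05 without control 2 and 0.25 without control 3 or without DX2 2. Lox, the lysyl oxidase that crosslinks collagen and elastin, read 4.45, 4.16 and 4.48 in control and 4.79, 4.47 and 4.72 in DX2 spleens (difference 0.30, SE 0.14, limma adjusted p = 0.350). Loxl1, a relative needed for elastic fibres, read 5.54, 5.17 and 5.43 in control and 5.75, 5.38 and 5.85 in DX2 spleens (difference 0.28, SE 0.16, limma adjusted p = 0.451). For both, DX2 2 was the lowest DX2 spleen and lay within the control range.

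Eln, which encodes elastin itself, was slightly lower, at 5.79, 5.88 and 5.59 in control and 5.57, 5.51 and 5.59 in DX2 spleens (difference -0.20, SE 0.11, limma adjusted p = 0.458). DX2 3 and control 3 were level, and with the sex term the difference was -0.03. Fbln2, a fibulin of vessel walls, differed by 0.20 (SE 0.15) with control values of 5.54 to 5.87 and DX2 values of 5.64, 6.07 and 6.004. Fbln5, which organises elastic fibres on cell surfaces, read 6.83, 7.02 and 7.81 in control and 7.54, 6.71 and 7.68 in DX2 spleens, a difference of 0.09 (SE 0.32, limma adjusted p = 0.928) whose sign depended on which array was left out. Fbln1 differed by -0.06 (SE 0.13).

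Proteoglycans and adhesive or matricellular glycoproteins split evenly, 5 of 10 higher and 5 lower, with a median of 0.01. The 2 members at an unadjusted p under 0.05 (2 of 10, against 7.82% of all genes as lower) were both lower in DX2. Postn, periostin, a matricellular protein that binds collagen and is made by activated fibroblasts, read 5.27, 5.44 and 5.47 in control and 4.94, 4.57 and 4.89 in DX2 spleens. It was the lone member with every DX2 value under every control value, and the difference was -0.59 (SE 0.13, limma adjusted p = 0.109).

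Ogn, the leucine-rich proteoglycan mimecan, read 6.48, 5.03 and 6.15 in control and 5.06, 4.71 and 5.02 in DX2 spleens. Control 2 was level with the DX2 spleens, while controls 1 and 3 stood well above them. The difference of -0.95 (SE 0.34, limma adjusted p = 0.239) was -1.38 without control 2 and -0.66 without control 1. The 7 mesothelium markers, from the cells that cover the capsule, were also all lower in DX2 (median -0.22, none past the threshold). Their mean log2 value was 5.45 in control 1, 4.97 and 5.02 in controls 2 and 3, and 4.86 to 4.96 in DX2, so control 1 stood apart for them, and their part in the Ogn values was not tested.

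Dcn, decorin, the small proteoglycan of collagen fibrils, varied more than any other member within both groups, at 9.14, 8.13 and 7.52 in control and 6.46, 9.28 and 7.81 in DX2 spleens. DX2 spleens held both its highest and its lowest value, and the difference of -0.41 (SE 0.69) has a 95% interval from -2.03 to 1.21. Lum, lumican, its neighbour in the genome, read 4.03, 3.55 and 3.34 in control and 3.42, 3.41 and 3.43 in DX2 spleens (difference -0.22, SE 0.18, limma adjusted p = 0.605). The higher value of control 1 carried the Lum difference, which was 0.09 with the sex term, and no detection limit is stated for values this low.

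Bgn, biglycan, a proteoglycan of stroma and vessel walls, read 11.05, 10.52 and 10.75 in control and 10.74, 11.13 and 11.56 in DX2 spleens (difference 0.37, SE 0.23, limma adjusted p = 0.482). Only DX2 2 and DX2 3 exceeded every control spleen, as for type I collagen, and the difference was 0.57 without DX2 1 and 0.16 without DX2 3. Sparc, a collagen-binding matricellular protein, had the same order of DX2 spleens, at 8.45 to 8.67 in control and 8.28, 8.67 and 9.003 in DX2, a difference of 0.12 (SE 0.19). Fn1, fibronectin, was highest in DX2 1 (8.26) and at 7.52 and 7.30 in the other DX2 spleens, against 7.38 to 7.75 in control, a difference of 0.19 (SE 0.25). Tnxb (0.09, SE 0.20), Mgp (0.04, SE 0.23) and Tnc (-0.03, SE 0.25) differed by less than their errors.

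**Figure D3:**
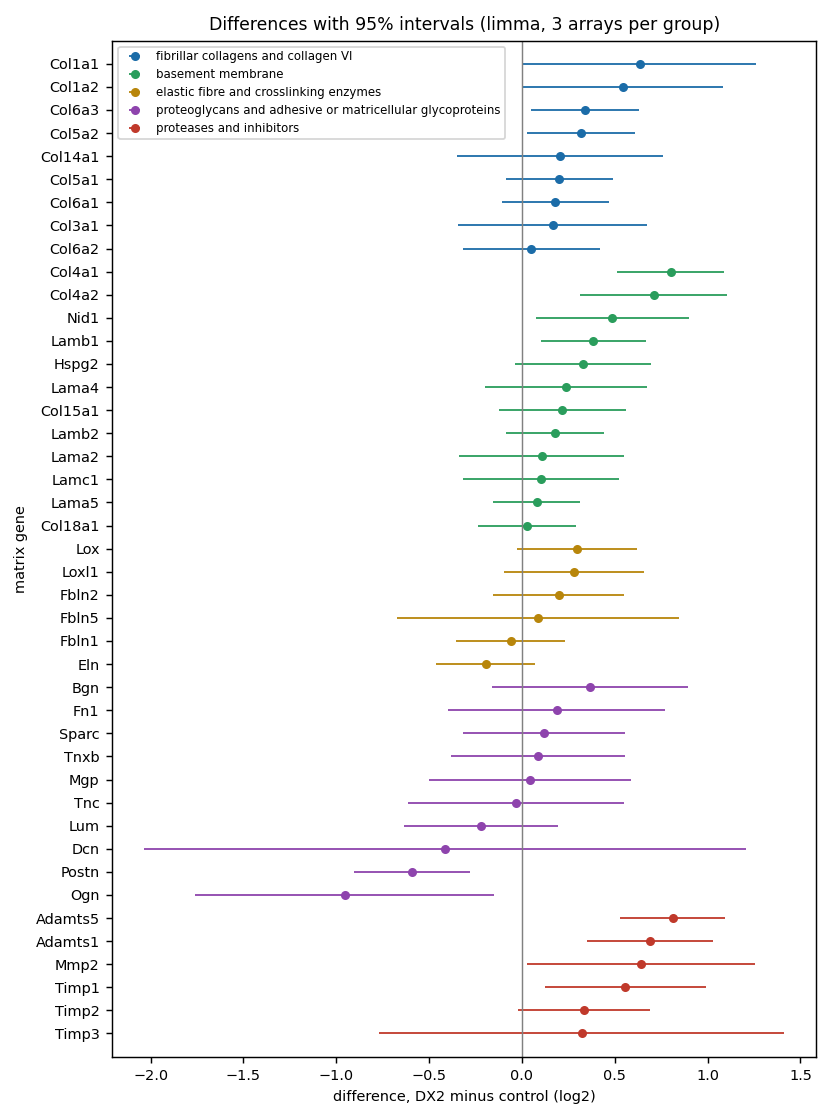
Difference between DX2 and control (log2) for the 43 measured members with 95% intervals from limma (3 arrays per group), coloured by role group. The intervals of Adamts5, Col4a1, Adamts1 and Col4a2 lie furthest to the right of 0, those of Postn and Ogn lie below 0, and Dcn has the widest interval, from -2.03 to 1.21. The intervals are not adjusted for the number of genes.

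Genes that act on the matrix were examined beside the members, in lists that were chosen with earlier results of these arrays known. Of 24 measured collagen synthesis and processing genes, 20 were higher in DX2 (median 0.16), and none passed the adjusted threshold. At an unadjusted p under 0.05, 7 were higher (29.2%, against 8.13% of all genes). Serpinh1, the collagen chaperone HSP47, read 6.82, 6.61 and 6.84 in control and 7.41, 7.51 and 7.36 in DX2 spleens, a difference of 0.67 (SE 0.11, limma adjusted p = 0.0686). Plod1, a lysyl hydroxylase of procollagen, read 6.45, 5.79 and 6.08 in control and 6.88, 7.31 and 6.95 in DX2 spleens, a difference of 0.94 (SE 0.19, limma adjusted p = 0.0937). The groups did not overlap for either gene, nor for the procollagen protease Adamts3 (0.81, SE 0.18) and the prolyl hydroxylase subunit P4ha1 (0.55, SE 0.16).

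TGF-beta genes, which drive collagen synthesis in many tissues, showed no shared direction, with 12 of 21 higher and a median of 0.01. Tgfbi, a TGF-beta-induced matrix protein that macrophages also make, had the smallest p among them (0.66, SE 0.19, limma adjusted p = 0.172), and Tgfb1 differed by 0.27 (SE 0.14). Of 23 matrix receptors, 17 were higher (median 0.17) and none passed, with Itga5 and Itgb5, integrin chains that bind fibronectin and vitronectin, at 0.56 (SE 0.15) and 0.67 (SE 0.21).

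Among 35 other matrix proteases and inhibitors, 21 were higher and 14 lower (median 0.14), and 1 passed, Adamts6, which fell. Adamts6, a relative of Adamts1 and Adamts5, read 7.08, 7.15 and 7.27 in control and 6.11, 6.03 and 6.17 in DX2 spleens, a difference of -1.07 (SE 0.11, limma adjusted p = 0.0329). ADAMTS genes therefore lay on both sides of 0, with Adamts1 and Adamts5 higher and Adamts6 and Adamts10 (-0.56, SE 0.13) lower without overlap. Plaur, the urokinase receptor, differed by -0.63 (SE 0.11, limma adjusted p = 0.0683), and Mmp19 by 0.83 (SE 0.22). Of 43 other matrix proteins, 26 were higher (median 0.05) and none passed, with Ecm1 at 0.89 (SE 0.24) and the nidogen Nid2 at 0.25 (SE 0.11). At an unadjusted p under 0.05, 2 of them were higher (4.65%, against 8.13% of all genes) and 0 lower. The groups did not overlap for 3 as higher (6.98%, against 10.7% of genes) and for 3 as lower. The excess of higher genes among the members was thus not seen in this list.

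Markers of the cells that make and surround the matrix give the setting of these values. The 16 measured fibroblast and reticular stroma markers had 7 higher and 9 lower members (median -0.08), and their mean was 7.26 to 7.47 in control and 6.98, 7.40 and 7.31 in DX2 spleens. Pdgfrb, a receptor of fibroblasts and pericytes, was higher without overlap (0.44, SE 0.14, limma adjusted p = 0.189). S100a4 was lower without overlap (-0.43, SE 0.15, limma adjusted p = 0.228). Pdgfra differed by 0.31 (SE 0.14), Cxcl13 by -0.89 (SE 0.46) and Cxcl12 by -0.59 (SE 0.31), each with overlap. Acta2, smooth muscle actin, differed by -0.32 (SE 0.21). The 10 smooth muscle and pericyte markers had a median of -0.02. Stroma markers as a list were thus lowest in DX2 1, the DX2 spleen in which Col1a1, Col1a2 and Dcn were lowest. Other members went the other way, with Col14a1, Col5a2, Lama2, Lox, Fn1 and Timp3 among those highest of the DX2 spleens in DX2 1. The part of stroma content in the member values was not tested.

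Lists of B cell and red pulp macrophage markers differed between the groups as well, and they held the B cell genes and the macrophage gene past the threshold. The mean of 10 B cell markers was 9.70 to 10.11 in control and 7.91 to 8.68 in DX2 spleens, and that of 12 red pulp macrophage markers was 8.51 to 8.75 in control and 9.12 to 9.28 in DX2 spleens. Of the B cell markers, 10 of 10 were lower and 5 passed, and of the macrophage markers 10 of 12 were higher and 1, Cd5l, passed. The mean of the erythroid markers was 6.36, 8.26 and 8.13 in control and 9.78, 7.46 and 9.49 in DX2 spleens. That of the neutrophil markers was 6.90, 7.32 and 7.99 in control and 9.11, 7.20 and 7.42 in DX2 spleens. For both lists the groups overlapped, and no gene passed. Adipose and pancreas markers, which would mark tissue attached to the spleen, had a median of -0.06 over 10 genes and means of 4.77 to 4.93 in control and 4.55 to 5.06 in DX2 spleens. How far these shifts in blood cell transcripts bear on the members was not tested.

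**Figure D4:**
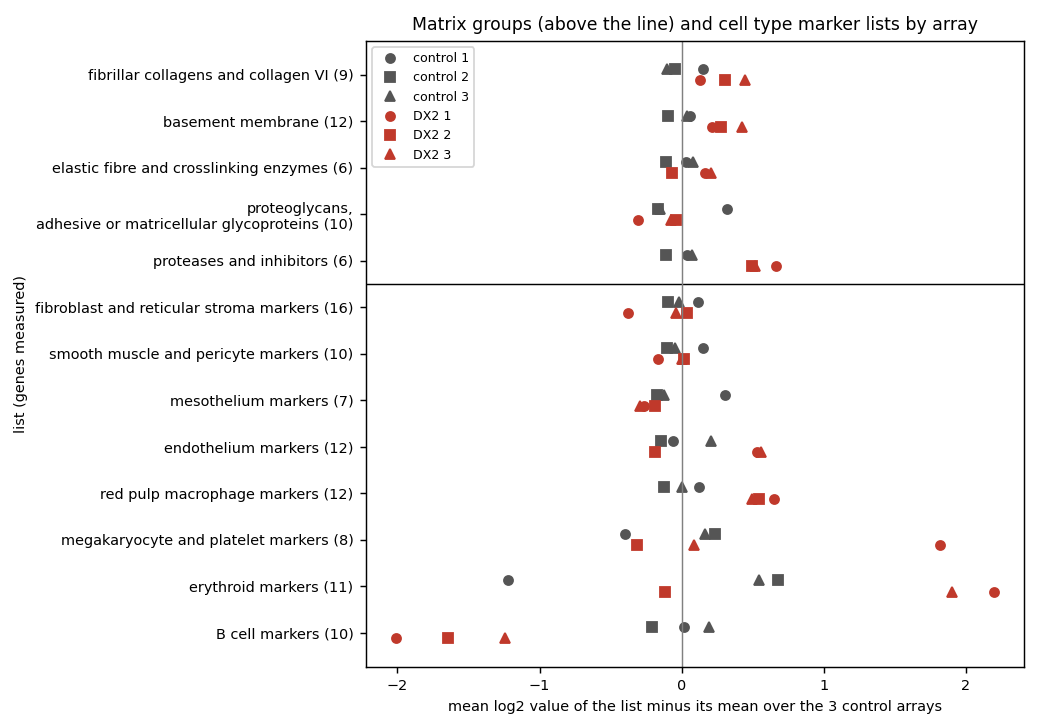
Mean log2 value of each matrix role group (above the line) and each cell type marker list (under it) on every array, minus the list's mean over the 3 control arrays, with control arrays in grey and DX2 arrays in red. The proteases and inhibitors and the basement membrane group lie above all control arrays on all 3 DX2 arrays, by far less than the erythroid markers span, and the fibroblast list is lowest on DX2 1.

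A fit with a term for sex compares the DX2 spleens with control 3 alone and takes the spread from fewer degrees of freedom, so sex and that 1 spleen cannot be told apart in it. In it the difference was 0.75 for Col4a1 (SE 0.19), 0.66 for Col4a2 (SE 0.26), 0.65 for Adamts5 (SE 0.16), 0.68 for Adamts1 (SE 0.22) and -0.67 for Postn (SE 0.20). Without the term these differences were 0.80, 0.71, 0.81, 0.69 and -0.59. Of 43 members, 35 kept their direction, and the median was 0.24. The differences of Lamb1, Nid1 and Eln were 0.24, 0.35 and -0.03 with the term against 0.38, 0.49 and -0.20 without it, and no member was past the adjusted threshold in this fit, in which 2 genes passed.

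**Figure D5:**
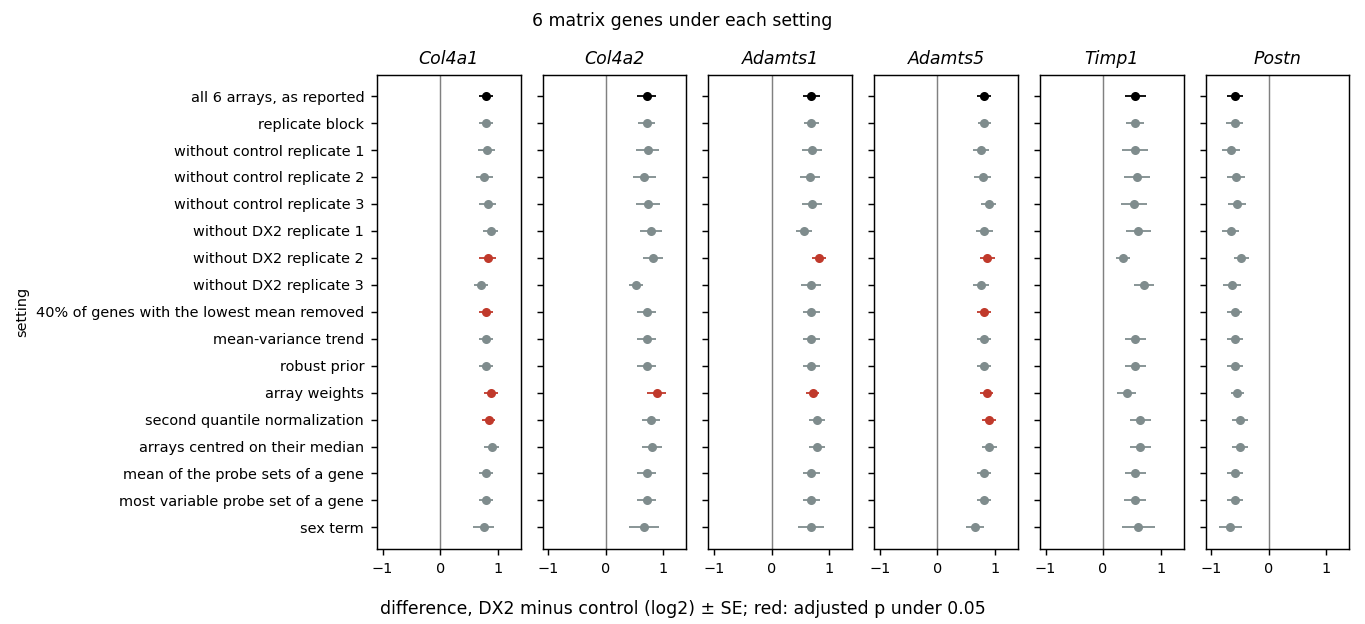
Difference between DX2 and control (log2, bars are SE) for 6 matrix genes in the fit of all 6 arrays (black) and under 16 other settings, red where the adjusted p was under 0.05. Col4a1, Col4a2, Adamts1, Adamts5 and Timp1 stay above 0 and Postn stays below 0 in every setting that was run, and 11 of the other settings' values pass, all of them for Col4a1, Col4a2, Adamts1 or Adamts5. Timp1 has no value where dim genes were removed.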

How the data were processed

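RNA of 6 mouse spleens (3 control, 3 DX2) was measured on Affymetrix arrays. The authors deposited log2 values made with RMA, per the submitters' processing notes. RMA corrects background, normalizes arrays to each other, summarises probe sets and can compress large differences. No source used here gives its software or version, and the log2 scale was inferred from the range (0.771 to 13.3). The platform annotation named 23521 of 41345 probe sets with 1 gene, and each gene was taken from its probe set with the highest mean.

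Groups came from sample titles. The test was limma 3.58.1 in R 4.3.3 (lmFit, eBayes, no covariate) over 22180 genes, two-sided, with Benjamini-Hochberg adjustment, and it was tested on simulated data. Array-by-array values are given for the 4 members of smallest unadjusted p and the highest mean in each role group, and for non-overlapping members with a difference of at least 0.5. The members, lists and this rule were chosen with earlier results of these data known. Values outside the rule, such as those of Timp3, Dcn, Col3a1, Sparc and Fn1, were picked after they were seen. The alternatives are those described under the dependence on processing.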

Additional observations from a re-analysis of the deposited data

How the results depend on the processing

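The count of 70 genes past the threshold was 1 with the replicate block, 125 without the 40% dimmest genes, 547 with array weights, 2 with arrays centred on their medians, 2 with the sex term and 1 to 370 when an array was left out. The count of members past it, 0, became 2 without dim genes, 4 with array weights, 2 after a second quantile normalization and 0 to 3 when an array was left out (3 without DX2 2). The 14 members at an unadjusted p under 0.05 became 5 with the sex term and 7 to 15 when an array was left out. The share of all genes higher at that level moved as well, over 5.48% to 9.62% when an array was left out, and was 3.76% with the sex term. Leaving out arrays moved the median of fibrillar collagens over 0.19 to 0.37, of basement membrane over 0.17 to 0.34, of elastic fibre and crosslinking genes over 0.05 to 0.25, of proteoglycans and glycoproteins over -0.22 to 0.13 and of proteases over 0.56 to 0.70. The sex term gave 0.38 for fibrillar collagens, and the protease median was 0.43 with array weights and 0.69 with centred arrays. Centring moved the median of all genes from 0.01 to 0.10, so differences there are to be read against that shift. The second quantile normalization moved it to 0.07, with 61.8% of all genes higher and 84 genes past the threshold. The members past the threshold in that setting are to be read against this shift as well. Fbln5 reversed with the sex term (-0.50) and ranged from -0.11 to 0.39 over arrays left out, and Lum reversed with the sex term (0.085). Of 365 recomputed values of 23 members, 348 kept direction and side of the threshold, 6 reversed and 11 newly passed, and the cause was not tested. With the replicate block no member passed. Replicate numbers did not pair the arrays (correlations of deviations -0.32, -0.14 and 0.07 for numbers 1, 2 and 3). With 3 arrays per group the median SE over genes was 0.14.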
